A study of Homo sapiens with 4 samples.

Results

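The 10 genes described here belong to the YAP-TEAD pathway or are transcribed by it, and all 10 were listed among the 32991 genes common to the 4 count tables. They are the coactivators *YAP1* and *WWTR1*, which encodes the protein TAZ, the DNA-binding partner *TEAD1*, the target genes *ANKRD1*, *CCN1* (also called *CYR61*) and *CCN2* (also called *CTGF*), the angiomotin-like genes *AMOTL1* and *AMOTL2*, the LIM protein gene *AJUBA* and the kinase gene *LATS2*. They were chosen by name, with earlier results of these data known. Cells came from A375, an established melanoma line with the *BRAF* V600E mutation. The S culture was untreated, the RV culture had been made resistant to the *BRAF* inhibitor vemurafenib, the RVC culture to vemurafenib with the MEK1/2 inhibitor cobimetinib, and the RVT culture to vemurafenib with the MEK1/2 inhibitor trametinib. Resistance was raised over 10 to 14 days at drug concentrations below the IC50, and the drugs were withdrawn 24 h before capture, so the resistant cultures were measured off drug. Each condition was 1 droplet library with 10000 cells loaded, and how many cultures went into a library was not given in the sources used here.

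In the Hippo pathway, the kinases *STK3* and *STK4* with *SAV1* activate *LATS1* and *LATS2* with *MOB1A* and *MOB1B*, and these phosphorylate YAP and TAZ, which keeps them out of the nucleus. Unphosphorylated YAP and TAZ enter the nucleus and bind TEAD proteins on DNA, where they switch on genes such as *ANKRD1*, *CCN1* and *CCN2*. Several of their targets, among them *AMOTL2*, *AJUBA* and *LATS2*, take part in the control of YAP itself. YAP and TAZ activity is set mostly at the protein level, which transcript counts do not show. In melanoma the pathway is known in connection with poorly pigmented, invasive states and with resistance to *BRAF* inhibitors.

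After removal of low-quality barcodes and likely doublets, 6334 S, 4177 RV, 7623 RVC and 8445 RVT cells were left, with 58611860, 52389992, 32968217 and 25407545 UMIs (unique molecular identifiers, each marking a captured transcript). The median cell had 8807.5 UMIs in S and 11553 in RV, but 3959 in RVC and 2871 in RVT. The S and RV tables used 1 gene annotation and the RVC and RVT tables another, so that drug, annotation and depth cannot be told apart in a comparison of RVC or RVT with S. Pairs of libraries shared between 38 and 149 cell barcodes, at most 1.61% of either. Levels are given as CPM, the UMIs of a gene per 1000000 UMIs of its library. Ranges in brackets are exact 95% intervals and cover counting error only. With 1 library per condition the spread between cultures is unknown, and no test between conditions was possible. In a summed level, fewer cells with a transcript and less transcript per cell cannot be told apart. Shares of cells are given beside it. For most of these sparse genes they follow the level closely and do not separate these readings. For those shares every cell was thinned to 1500 UMIs by random draw, which left out 397 RVC and 845 RVT cells with fewer. No cell type known to lack the 10 genes was present, so the share that free RNA alone would give could not be measured.

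The label melanoma was checked against 8 melanocyte and neural crest markers. S summed to 195 CPM, RV to 81.4, RVC to 8.58 and RVT to 61.9. The markers did not move together. *SOX10*, *ERBB3* and *S100B* made up most of the S sum, at 86.3, 65.8 and 32.8 CPM, and were lower in each resistant library. *MITF* instead stood at 9.78 CPM in S, 20.2 in RV and 41.3 in RVT. *TYR* had no UMI in any library, *MLANA* and *DCT* had at most 2, and *SOX10* and *S100B* had none in RVC, where nearly the whole sum was *MITF* at 8.13 CPM. The 6 fibroblast markers summed to 2.56 CPM or less in S and RV, 167 CPM in RVC and 43.1 CPM in RVT. *COL3A1* made up 121 CPM of the RVC sum and had 0 UMIs in S and RV. The leukocyte genes *PTPRC* and *CD3E* and the epithelial gene *CDH1* were at 0 in all libraries. Epithelial markers summed to 9.49 CPM or less, leukocyte markers to 0.744 or less and endothelial markers to 1.40 or less. The part of these markers in the results for the 10 genes was not tested.

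TEAD proteins bind a core motif that reads CATTCC, or GGAATG on the other strand. Sequences were taken from RefSeq (GRCh38.p14), in which 8 of the 10 genes matched with 11 starts. *TEAD1* and *CCN1* were not matched. The 250 bases before the start held the motif at 5 of these 11 starts (45.5%), beside 11.9% of the 35116 starts of all genes. At least 2 matches occurred at the starts of *ANKRD1* and *CCN2*, and at 0.940% of all starts. The AP-1 motif TGANTCA was present at 1 of the 11 starts, that of *ANKRD1*, and at 6.57% of all starts. A match is a run of letters and no shown binding site. The stretches of *ANKRD1* (chr10:90921277-90921337, minus strand) and *CCN2* (chr6:131951374-131951622, minus strand) are printed because these starts hold the most matches and because the genes' levels went opposite ways in RVT. They lie upstream of the gene's start in both RefSeq and GENCODE 29, read 5′ to 3′, and have TEAD motifs in capitals.
ANKRD1: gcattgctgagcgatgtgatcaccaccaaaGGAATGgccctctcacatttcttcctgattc
CCN2: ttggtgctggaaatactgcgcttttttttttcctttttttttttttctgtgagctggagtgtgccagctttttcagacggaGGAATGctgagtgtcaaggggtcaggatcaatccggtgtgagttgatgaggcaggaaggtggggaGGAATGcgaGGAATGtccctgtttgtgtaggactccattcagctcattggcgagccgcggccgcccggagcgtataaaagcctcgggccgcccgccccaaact
The single match of *ANKRD1* in this stretch begins 220 bases before its RefSeq start, and those of *CCN2* begin 169, 104 and 95 bases before. The second match of *ANKRD1*, 128 bases before the RefSeq start, lies within the first exon of the longer GENCODE 29 model. Windows of at most 30 bases around it and around the matches of *YAP1*, *AMOTL2* and *AJUBA* follow, the last 2 from the second start of each gene, again with the motif in capitals.
ANKRD1, chr10:90921198-90921227, minus strand: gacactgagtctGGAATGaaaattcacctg
YAP1, chr11:102110273-102110302, plus strand: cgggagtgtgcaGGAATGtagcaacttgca
AMOTL2, chr3:134374499-134374528, minus strand: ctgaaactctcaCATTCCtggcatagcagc
AJUBA, chr14:22976884-22976913, minus strand: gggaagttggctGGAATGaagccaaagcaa
The *AMOTL2* and *AJUBA* matches also lie in exons of GENCODE 29 models, so that a match upstream of the whole gene was present at 3 of the 5 starts, those of *ANKRD1*, *CCN2* and *YAP1*. *WWTR1*, *AMOTL1* and *LATS2* had no TEAD match in their windows. The RefSeq starts of *WWTR1* (149703273 and 149658025) and *AMOTL1* (94768356) lie inside the GENCODE 29 genes, which begin at 149736714 and 94706431. The bases before those outer starts were not searched.

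On GRCh38 (GENCODE 29) the genes lie at chr11:102110461-102233423 (*YAP1*, plus strand), chr3:149517235-149736714 (*WWTR1*, minus), chr11:12674591-12944483 (*TEAD1*, plus), chr10:90912096-90921276 (*ANKRD1*, minus) and chr1:85580761-85583962 (*CCN1*, plus). The others lie at chr6:131948176-131951373 (*CCN2*, minus), chr11:94706431-94876753 (*AMOTL1*, plus), chr3:134355874-134375479 (*AMOTL2*, minus), chr14:22971174-22982642 (*AJUBA*, minus) and chr13:20973032-21061547 (*LATS2*, minus). *YAP1*, *WWTR1*, *TEAD1*, *CCN2*, *AMOTL1* and *LATS2* each overlap 1 or 2 antisense genes, and whether counting used strand was not given in the sources used here.

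The coactivators went opposite ways in RVT. For *YAP1*, S held 11.5 CPM (10.7 to 12.4), RV 12.0 (11.1 to 13.0), RVC 25.4 (23.7 to 27.2) and RVT 52.1 (49.3 to 55.0). The S and RV intervals overlapped, and both double-resistant libraries lay above them, RVT at 4.52 times S (4.12 to 4.96). *WWTR1* ran the other way at the extremes, highest in S with 149.7 CPM, followed by RVC with 133, RV with 109.6 and RVT with 75.5, none of whose intervals overlapped. Of the UMIs of both coactivators, *YAP1* took 7.15% in S (6.64 to 7.69) and 9.89% in RV (9.17 to 10.6), but 16.0% in RVC (15.0 to 17.1) and 40.9% in RVT (39.2 to 42.6). Cells with a *YAP1* UMI after thinning made up 1.69% of S, 1.58% of RV, 4.10% of RVC and 7.62% of RVT. For *WWTR1* these shares were 19.3%, 16.3%, 18.1% and 10.7%. Without thinning, 9.88% of S and 14.1% of RVT cells had a *YAP1* UMI, and 67.7% of S and 19.9% of RVT cells a *WWTR1* UMI.

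*TEAD1*, 1 of 4 related genes for the DNA-binding partner of YAP, stood at 5.46 CPM in S (4.88 to 6.09) and 5.08 in RV (4.49 to 5.73), against 20.1 in RVC (18.6 to 21.7) and 25.2 in RVT (23.3 to 27.2). Intervals of S and RV overlapped, and *TEAD1* was 3.68 times (3.22 to 4.22) and 4.61 times (4.03 to 5.29) as high in RVC and RVT as in S. Its paralogue *TEAD4* was instead higher in S and RV, with 34.1 and 36.7 CPM against 4.82 in RVC and 5.04 in RVT. Its level was 7.07-fold lower in RVC than in S (6.01 to 8.36). *TEAD1* made up 13.8% of the UMIs of *TEAD1* and *TEAD4* in S (12.4 to 15.3) and 12.2% in RV (10.8 to 13.6), but 80.7% in RVC (77.8 to 83.3) and 83.3% in RVT (80.5 to 85.9). *TEAD2* and *TEAD3* were 3.64 and 3.51 times as high in RVT as in S. The plot of shares within pairs of related genes shows that the TEAD pair divided the libraries into S and RV on 1 side and RVC and RVT on the other.

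**Figure D1:**
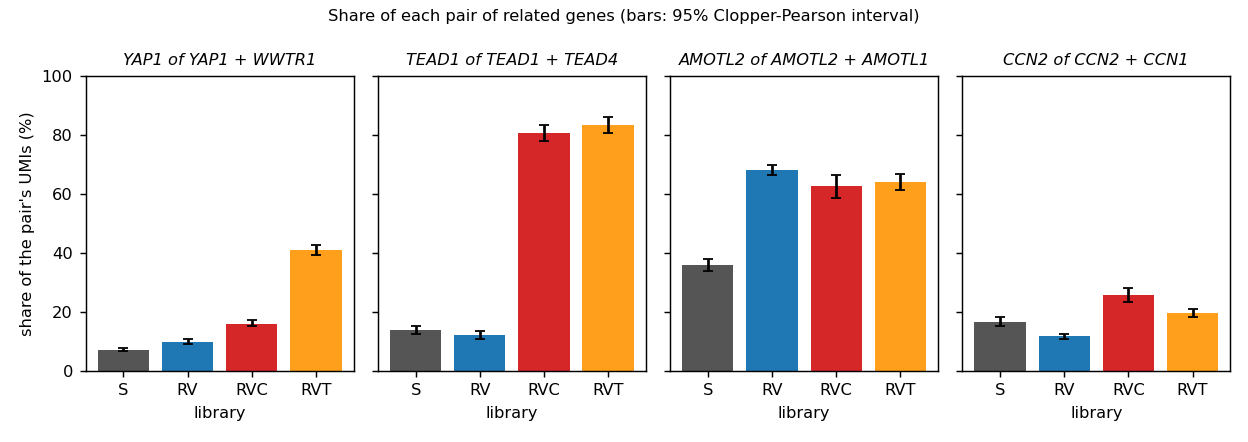
Share of 1 gene in the UMIs of a pair of related genes (vertical axis, %) in the S, RV, RVC and RVT libraries (bars, with 95% Clopper-Pearson intervals). The *TEAD1* share stood at 13.8% and 12.2% in S and RV and at 80.7% and 83.3% in RVC and RVT, and the *YAP1* share was highest in RVT at 40.9%.

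*ANKRD1*, an ankyrin repeat protein of the nucleus and the muscle sarcomere and a widely used readout of YAP activity, spanned the widest range of the 10 genes. S counted 5960 of its UMIs, RV 8966, RVC 8 and RVT 71, which is 101.7 (99.1 to 104), 171 (168 to 175), 0.243 (0.105 to 0.478) and 2.79 CPM (2.18 to 3.52). The 4 intervals lay apart. RV lay 1.68 times above S (1.63 to 1.74). RVT lay 36.4-fold below S (28.8 to 46.7), and RVC below both. RVT exceeded RVC 11.5 times, with a wide interval of 5.54 to 27.7 because RVC had so few UMIs. Thinned cells with an *ANKRD1* UMI made up 7.23% of S, 15.0% of RV, 0.0415% of RVC and 0.316% of RVT cells. Without thinning they were 17.7%, 40.0%, 0.105% and 0.805%. At the low levels of RVC and RVT a small share of cells follows from the level itself. It does not tell fewer cells with *ANKRD1* from less *ANKRD1* per cell.

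*CCN1* and *CCN2*, secreted matricellular proteins that bind integrins, did not share this course. For *CCN1*, S held 37.9 CPM (36.3 to 39.5), RV 84.0 (81.5 to 86.5), RVC 34.7 (32.7 to 36.8) and RVT 93.9 (90.1 to 97.7). S and RVC overlapped, and RV and RVT lay 2.22 times (2.11 to 2.33) and 2.48 times (2.34 to 2.63) above S. *CCN2* was lowest in S at 7.54 CPM (6.85 to 8.28), followed by RV at 11.1 (10.2 to 12.1), RVC at 12.0 (10.8 to 13.2) and RVT at 22.8 (21.0 to 24.8). Only the RV and RVC intervals of *CCN2* overlapped. On library totals RVT thus held the highest *CCN1* and *CCN2* levels of the 4 libraries while its *ANKRD1* level was 36.4-fold below that of S. The order of RV and RVT for *CCN1* turned with scaling, since sizes scaled with the trimmed mean of M-values gave 93.3 CPM in RV and 75.1 in RVT, and centring on GC content gave 2.17 and 1.33 times S. *CCN1* UMIs occurred in 4.28% of S, 11.0% of RV, 4.61% of RVC and 11.1% of RVT thinned cells, and *CCN2* UMIs in 0.995%, 1.58%, 1.70% and 3.30%.

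Of the angiomotin-like genes, whose products hold YAP in the cytoplasm and at junctions, *AMOTL2* had 11.9 CPM in S (11.0 to 12.8) and 11.4 in RVC (10.3 to 12.6), against 37.3 in RV (35.6 to 38.9) and 28.7 in RVT (26.6 to 30.9). As for *CCN1*, S and RVC overlapped and RV and RVT lay above them. *AMOTL1* had its highest level in S at 21.2 CPM (20.1 to 22.4), with 17.5 in RV (16.4 to 18.6), 16.1 in RVT (14.6 to 17.8) and 6.82 in RVC (5.96 to 7.78), 3.11-fold below S (2.70 to 3.60). The intervals of RV and RVT overlapped. *AMOTL2* therefore made up 35.8% of the UMIs of both genes in S and between 62.6% and 68.1% in the resistant libraries.

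*AJUBA*, a LIM domain protein that binds LATS kinases and restrains them, was highest in RV at 21.4 CPM (20.1 to 22.6), followed by RVT at 17.6 (16.0 to 19.3), S at 10.7 (9.84 to 11.5) and RVC at 6.01 (5.20 to 6.90), with no overlap between libraries. Since 1 further annotated gene overlaps *AJUBA* on the same strand, its level is uncertain as far as reads fell in both genes. *LATS2*, a kinase that inactivates YAP, had few UMIs throughout, with S at 3.29 CPM (2.84 to 3.79), RV at 4.33 (3.79 to 4.93), RVC at 5.10 (4.35 to 5.93) and RVT at 11.8 (10.5 to 13.2). Neighbouring intervals overlapped up to RVC, and RVT stood apart at 3.57 times S (2.97 to 4.31).

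**Figure D2:**
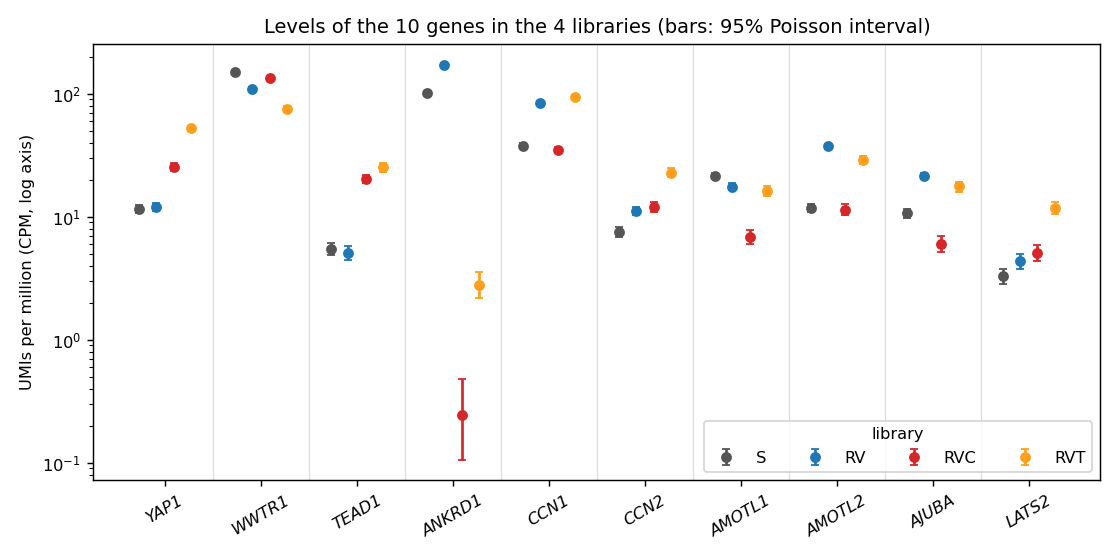
Level of each of the 10 genes (CPM, log axis) in the S, RV, RVC and RVT libraries, 1 point per library with its 95% Poisson interval. *ANKRD1* spans 171 CPM in RV to 0.243 CPM in RVC, and *YAP1* and *LATS2* are highest in RVT.

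A gene was called higher or lower in a comparison when its CPM differed at least 2-fold. Beside each count stands the share of the 10302 genes with a mean of at least 3 CPM over the libraries that were called in the same direction; all 10 genes met this minimum. In RV over S, 3 of the 10 genes were higher, *AMOTL2* at 3.14 times (2.88 to 3.43), *CCN1* at 2.22 times and *AJUBA* at 2.00 times (1.81 to 2.21), and 0 were lower. Among all genes 2.47% were higher and 2.03% lower. *AJUBA* stood at the 2-fold limit and its interval reached below it. *ANKRD1* at 1.68 times and *CCN2* at 1.48 times (1.30 to 1.67) remained within 2-fold, but exceeded the ratio of 95.8% and 92.6% of all genes. *YAP1* and *TEAD1*, at 1.04 and 0.930 times, had intervals that included equality, and *WWTR1* was 1.37-fold lower. The median log2 ratio of the 10 genes was 0.48, beside 0.02 for all genes. In RVC over S this median was -0.09 beside 0.21, in RVT over S 1.29 beside 0.37, and in RVT over RVC 1.22 beside 0.25.

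In RVC over S, 2 genes were lower, *ANKRD1* at 419-fold (213 to 971) and *AMOTL1* at 3.11-fold, and 2 higher, *YAP1* at 2.201 times (1.99 to 2.44) and *TEAD1* at 3.68 times. These counts stand beside 21.9% of all genes lower and 23% higher, so that the number called was close to that among all genes. In RVT over S, 1 gene was lower, *ANKRD1*, where 21.7% of all genes were. Higher were 6 genes, *YAP1*, *TEAD1*, *LATS2*, *CCN2* at 3.03 times (2.67 to 3.43), *CCN1* and *AMOTL2* at 2.42 times (2.18 to 2.69), where 32.5% of all genes were. *WWTR1* was 1.98-fold lower (1.89 to 2.09) and lay just inside the limit. In RVT over RVC, 7 of the 10 genes were higher beside 19% of all genes, and 0 were lower beside 11.2%. These were *ANKRD1*, *AJUBA* at 2.93 times (2.47 to 3.48), *CCN1* at 2.70 times (2.52 to 2.90), *AMOTL2* at 2.51 times (2.21 to 2.85), *AMOTL1* at 2.36 times (2.00 to 2.79), *LATS2* at 2.31 times (1.91 to 2.81) and *YAP1* at 2.05 times (1.88 to 2.24). *CCN2* at 1.91 times and *TEAD1* at 1.25 times stayed within 2-fold, and *WWTR1* was 1.76-fold lower. S served as the reference of 3 comparisons, which are therefore not independent.

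These counts depended on how the libraries were scaled. With the trimmed mean of M-values (TMM) of edgeR in place of library totals, the log2 ratios of all genes shifted by -0.51 in RVT over S, by -0.21 in RVC over S and by -0.30 in RVT over RVC. Higher genes then made up 39.0% of the calls in RVT over S instead of 59.9%, 39.6% instead of 51.3% in RVC over S, and 39.9% instead of 62.9% in RVT over RVC. On that scale *YAP1*, *TEAD1*, *CCN2* and *LATS2* stayed higher in RVT than in S, beside 19.3% of all genes, *CCN1* and *AMOTL2* came within 2-fold, and *WWTR1* passed 2-fold lower, beside 30.1%. In RVT over RVC, *ANKRD1*, *CCN1*, *AMOTL2* and *AJUBA* stayed higher, beside 11.1% of all genes, and *WWTR1* became lower, beside 16.7%. In RVC over S, *YAP1* came within 2-fold, which left *TEAD1* as the 1 higher gene, beside 16.7% of all genes. There *AJUBA* became lower beside *ANKRD1* and *AMOTL1*, where 25.4% of all genes were. The shift was -0.04 in RV over S, where *AJUBA* alone left the higher genes.

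The log2 ratios of RVC and RVT over S moved with base composition. Across genes, which are no independent replicates, their Spearman correlation with the GC content of a transcript's last 500 bases was -0.35 and -0.41. It was 0.00456 in RV over S and -0.16 in RVT over RVC. GC content of the transcript end was 29.6% in *YAP1*, 29.8% in *AMOTL2*, 31.0% in *LATS2*, 31.4% in *WWTR1*, 32.4% in *CCN1* and 32.8% in *CCN2*, and at most 19.4% of all genes had a lower value. *AMOTL1* had 46.8%. Ratios were then centred within 20 bins of GC content. This also set the median of all genes to 0, so that a rescaling of the libraries is part of it. That shift was -0.37 in RVT over S, -0.21 in RVC over S and -0.25 in RVT over RVC. With centring, the 6 higher genes of RVT over S became 2, *TEAD1* at 3.05 times and *YAP1* at 2.42 times, beside 20.7% of all genes. *LATS2* then stood at 1.81, *CCN2* at 1.62, *CCN1* at 1.33, *AMOTL2* at 1.30 and *AJUBA* at 1.04 times S, the last from 1.65 before centring. *WWTR1* was 3.93-fold lower and joined *ANKRD1*, now 57.6-fold lower in place of 36.4-fold, as a gene called lower, beside 24% of all genes. In RVC over S, *TEAD1* at 2.61 times was then the 1 higher gene, beside 16.4% of all genes, with *YAP1* at 1.58, *CCN2* at 1.06 and *LATS2* at 1.03 times. The 3 lower genes, *AJUBA* at 2.42-fold, *AMOTL1* and *ANKRD1*, stood beside 21.7%. In RVT over RVC, 4 genes were higher, *ANKRD1* at 9.15, *AJUBA* at 2.33, *AMOTL1* at 2.03 and *CCN1* at 2.02 times, beside 11.7%, and *WWTR1* was lower at 2.49-fold, beside 15.1%. The plot of log2 ratios gives both versions.

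**Figure D3:**
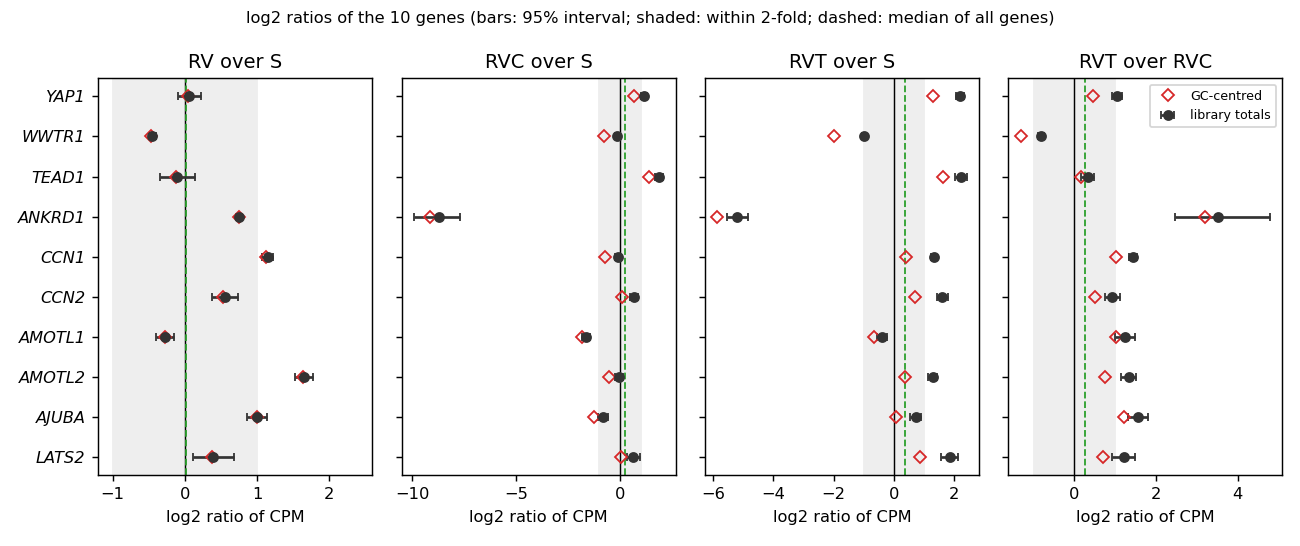
log2 ratio of CPM (horizontal axis, its range differing between panels) of the 10 genes in 4 comparisons; filled circles with 95% intervals use library totals and open diamonds are centred on GC content, with the shaded zone within 2-fold and the dashed line at the median of all genes. The diamonds coincide with the circles in RV over S and lie to their left in RVC and RVT over S, where *TEAD1* stays above and *ANKRD1* below 2-fold.

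Among the cells of a library *ANKRD1* was the most unevenly spread in S and RV of the 8 genes with at least 50 thinned UMIs there, which left out *TEAD1* and *LATS2*. The variance of its thinned UMIs was 3.60 times their mean in S and 2.50 times in RV, where independent draws from like cells would give 1. One S cell held 94 and one RV cell 99 *ANKRD1* UMIs. *CCN1* followed with ratios between 1.17 in RVC and 1.35 in RVT. *CCN2* reached 1.30 in RVC and 1.18 in RVT. For *YAP1*, *AMOTL1*, *AMOTL2* and *AJUBA*, and for *WWTR1*, the ratio lay between 0.976 and 1.09 in each library. The intervals given for *ANKRD1* levels leave out its uneven spread among cells and are too narrow for it.

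Some of the targets were detected in the same cells. In S, 19.9% of the thinned cells with an *ANKRD1* UMI also had a *CCN1* UMI (16.3 to 23.8), against 3.06% of the cells without (2.64 to 3.54), and the number of cells with both was 4.64 times that expected from independence. *AMOTL2* was found in 5.90% of S cells with *ANKRD1* and 1.43% of those without. *WWTR1* went the other way, since 3.19% of S cells with *WWTR1* had an *ANKRD1* UMI (2.28 to 4.34) against 8.20% of those without (7.46 to 8.98). In RV these contrasts were smaller, with *CCN1* in 15.4% of cells with and 10.3% of cells without *ANKRD1*, and *ANKRD1* in 10.4% of cells with and 15.9% of cells without *WWTR1*.

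*CCN1* and *CCN2* were detected together beyond independence in each library where at least 5 such cells were expected. In RVC 6.61% of *CCN1* cells (4.19 to 9.83) and 1.47% of the others had *CCN2*, a number of double-positive cells 3.88 times that under independence. In RVT the shares were 9.22% (7.36 to 11.4) and 2.56% (2.198 to 2.97), and in RV 3.47% and 1.35%. RVT also joined *CCN1* with *AMOTL2* (7.92% against 3.67%) and with *LATS2* (3.19% against 1.47%), and *TEAD1* with *AMOTL2* (7.59% against 4.00%). Of the pairs with at least 5 double-positive cells expected, the intervals of the shares lay apart with a higher share in 3 of 15 in S, 3 of 20 in RV, 1 of 14 in RVC and 5 of 32 in RVT. They lay apart with a lower share in 3 pairs in S and 2 in RV. Cells with 4 or more of the 10 genes made up 0.171% of RVT (0.0911 to 0.292), where independence gave 0.0628%, and at most 0.0479% of the other libraries.

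**Figure D4:**
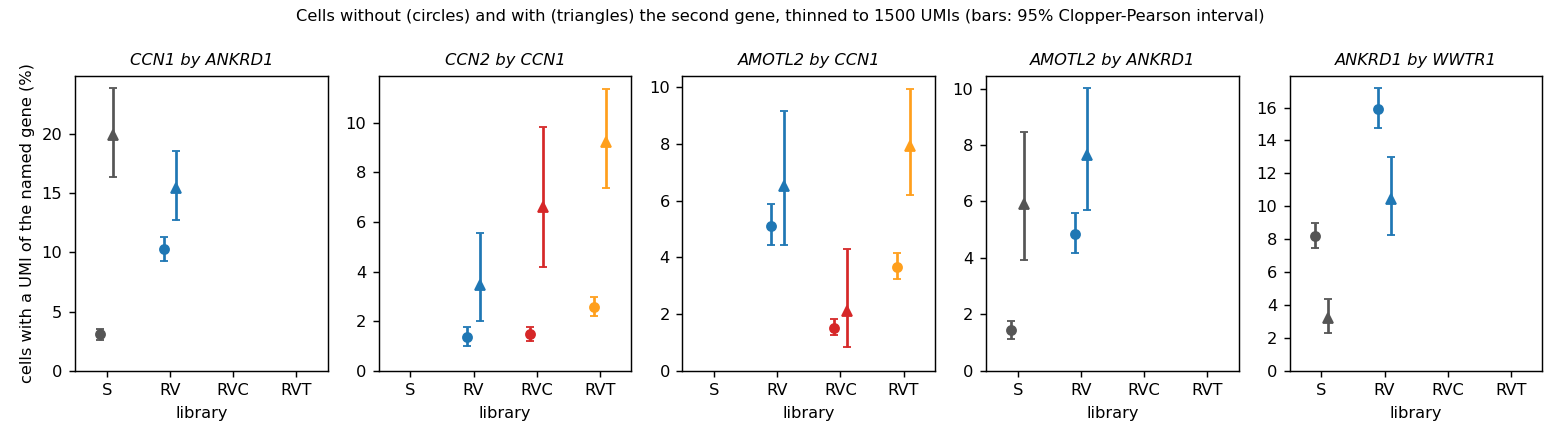
Share of thinned cells (vertical axis, %) with a UMI of the first named gene among cells without (circles) and with (triangles) a UMI of the second, by library, with 95% Clopper-Pearson intervals and only where at least 5 double-positive cells were expected. In S, *CCN1* was in 3.06% of cells without and 19.9% of cells with *ANKRD1*, whereas *ANKRD1* was in 8.20% of cells without and 3.19% of cells with *WWTR1*.

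The genes most like *ANKRD1* across S cells, by Pearson correlation of log-transformed thinned UMIs over 6334 cells and 1884 genes of at least 50 CPM, were *KRT81* (0.27), *KRT7* (0.22), *SPANXB1* (0.19), *TPM1* and *TPST1* (0.17 each). *KRT81* is a hair keratin. Correlations over cells share library and depth and are given as descriptions. Those of *CCN1* in S were headed by *ANKRD1* (0.23), *KRT81* (0.21) and *KRT7* (0.18), then *MT2A* and *SPANXB1*. Elsewhere coefficients were lower. In RV the highest of *ANKRD1* was 0.16, with *CALM2*, and in RVT that of *CCN1* was 0.14, with *THBS1*, which encodes a further matricellular protein. For *CCN2* and *AMOTL2*, and for *CCN1* in RV and RVC, the highest coefficient was 0.12. The weaker coefficients are not described further. In such sparse counts a small coefficient does not show that a pattern was absent.

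Because *KRT81* headed the *ANKRD1* list in S, cells were divided by *KRT81* after these values had been seen, and what follows is a description of that division. *KRT81* itself stood at 1178 CPM in S, 597 in RV and 93.1 in RVT, and had 1 UMI in RVC. A *KRT81* UMI was present in 44.0% of thinned S cells, 35.3% of RV, 12.0% of RVT and 0 of 7226 RVC cells. Before thinning, cells with no *KRT81* UMI made up 40.7% of S, 36.1% of RV and 79.9% of RVT cells. The order of S and RV thus turned with depth. In S, 5 of the target genes were concentrated in the *KRT81* cells. *ANKRD1* was at 209 CPM in cells with and 9.41 CPM in cells without *KRT81*, 22.2 times (19.7 to 24.98). *CCN1* stood at 73.9 and 6.77 CPM (10.9 times, 9.47 to 12.6), *CCN2* at 14.2 and 1.78 CPM (7.98 times, 6.02 to 10.8), *AJUBA* at 19.2 and 3.28 CPM (5.87 times) and *AMOTL2* at 20.5 and 4.36 CPM (4.72 times). Thus 5 of the 10 genes were at least 2-fold higher in *KRT81* cells, beside 3.8% of all genes, and 0 were 2-fold lower, beside 2.19%. *KRT81* had been picked for its correlation with *ANKRD1* in S, and it ranked 2 there for *CCN1* and for *AMOTL2*. The place of these genes among the 5 is thus no separate result. The coactivators and *TEAD1* did not share in the higher level in *KRT81* cells. *YAP1* at 1.05 times (0.897 to 1.22) and *TEAD1* at 0.912 times (0.726 to 1.14) had intervals that included equality, *LATS2* was at 1.64 times (1.22 to 2.21), and *WWTR1* was lower in *KRT81* cells, at 99.1 against 193 CPM, as was *AMOTL1* at 16.2 against 25.5.

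A stricter division by unthinned counts, 2840 S cells with at least 3 *KRT81* UMIs against 2580 with none, widened the gap. *ANKRD1* then stood at 209.6 against 1.39 CPM (31 UMIs in the cells with none), 151 times (106 to 223), *CCN1* at 74.0 against 4.47 CPM and *CCN2* at 14.6 against 1.03 CPM. The same 5 genes passed 2-fold higher, beside 4.8% of all genes, and *WWTR1* now passed 2-fold lower at 0.477 times (0.455 to 0.501), beside 2.67%. Median depth was 9307 UMIs in the former and 8396 in the latter cells. Melanocyte and neural crest markers summed to 127 CPM in thinned S cells with and 254 CPM in those without *KRT81*. *S100B* was at 13.3 and 49.6 CPM, *SOX10* at 59.3 and 110 CPM and *ERBB3* at 38.6 and 89.3 CPM. The remainder of the sum, in S nearly all *MITF*, went the other way and was higher in cells with *KRT81*. The 10 mitosis genes summed to 815 and 532 CPM. The part of these differences in the division was not tested.

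In RV the ratio of cells with to cells without *KRT81* lay between 0.791 for *WWTR1* and 1.54 for *ANKRD1* (1.48 to 1.60). By this division 0 of the 10 genes passed 2-fold, where 0.0485% of all genes were higher and 0.437% lower, so that few genes of any kind were separated by it. By the stricter division *ANKRD1* stood at 225 against 113 CPM, 1.99 times (1.89 to 2.10), at the 2-fold limit. RV cells without a *KRT81* UMI held *ANKRD1* at 143 CPM, *CCN1* at 78.4, *AMOTL2* at 36.1, *AJUBA* at 20.2 and *CCN2* at 10.8 CPM. Against S cells without *KRT81* these were 15.2 times (13.5 to 17.1), 11.6 times (10.1 to 13.4), 8.28 times (6.93 to 9.96), 6.17 times (5.01 to 7.67) and 6.06 times (4.56 to 8.18) as high. In cells without *KRT81*, 5 of the 10 genes were thus 2-fold higher in RV than in S, beside 5.08% of all genes, and 0 lower, beside 2.83%. Against one another, the *KRT81* cells of RV and S differed 2-fold in 0 of the 10 genes, beside 1.53% of all genes higher and 1.71% lower. *ANKRD1* was there at 219.9 and 209 CPM (1.05 times, 1.01 to 1.10), *CCN1* at 93.6 and 73.9 CPM (1.27 times) and *AMOTL2* at 39.3 and 20.5 CPM (1.91 times). The *ANKRD1* interval leaves out its uneven spread among cells. By this division RV and S thus differed in these genes mainly in cells without a *KRT81* UMI. Such cells were not alike in RV and S. They held *KRT7* at 556 CPM in RV and 29.2 CPM in S, and melanocyte and neural crest markers at a sum of 92.3 and 254 CPM. Without *SOX10*, *S100B* and *ERBB3*, the remainder of that sum was higher in RV. Of RV cells, 2701 had no *KRT81* UMI after thinning but only 1506 before it. The part of these differences in the ratios was not tested. 

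In RVT, *CCN1* at 168 against 82.5 CPM (2.04 times, 1.84 to 2.25) and *CCN2* at 40.8 against 20.1 CPM (2.03 times, 1.64 to 2.49) were higher in *KRT81* cells, with *AMOTL2* at 1.81 times (1.49 to 2.18) and *TEAD1* at 1.496 times (1.19 to 1.86). Thus 2 of the 10 genes passed 2-fold higher, beside 0.602% of all genes, and 0 lower, beside 1.13%. *ANKRD1* was at 4.88 and 2.56 CPM there, with an interval of the ratio that included equality. The stricter division gave 9.32 CPM in 142 cells with at least 3 *KRT81* UMIs, from 5 *ANKRD1* UMIs, and 2.17 CPM in cells with none, a ratio of 4.29 (1.33 to 10.8). By that division 4 of the 10 genes passed 2-fold higher, beside 4.1% of all genes, the others being *CCN1* at 2.99, *CCN2* at 2.83 and *LATS2* at 2.17 times (1.14 to 3.79), and 0 lower, beside 6.43%. Set against S, *ANKRD1* in RVT stood at 4.88 against 209 CPM in cells with and at 2.56 against 9.41 CPM in cells without a thinned *KRT81* UMI. In cells with no *KRT81* UMI at all the levels were 2.17 and 1.39 CPM, but these cells had a median of 2787 UMIs in RVT and 8396 in S, so that lack of a *KRT81* UMI does not mark like cells in both. The joint detection of *ANKRD1* and *CCN1* in S was smaller but present within *KRT81* cells, where *CCN1* was found in 20.6% of *ANKRD1* cells (16.8 to 24.7) and 6.52% of the others (5.56 to 7.59), 2.37 times independence. In RVT, the number of cells with both *CCN1* and *CCN2* was 2.199 times that under independence in cells with and 2.82 times in cells without *KRT81*. Within *KRT81* cells of S, *ANKRD1* with *CCN2* was at 2.68 times independence. *ANKRD1* with *AMOTL2* was at 1.87 times there, against 3.36 times in all S cells. Some other pairs did not keep their joint detection within *KRT81* cells. There *CCN1* with *AMOTL2* in RVT was at 0.957 times independence, against 2.18 times in cells without *KRT81*. *ANKRD1* with *AJUBA* in S was at 1.19 times within *KRT81* cells and 2.23 times in all S cells.

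**Figure D5:**
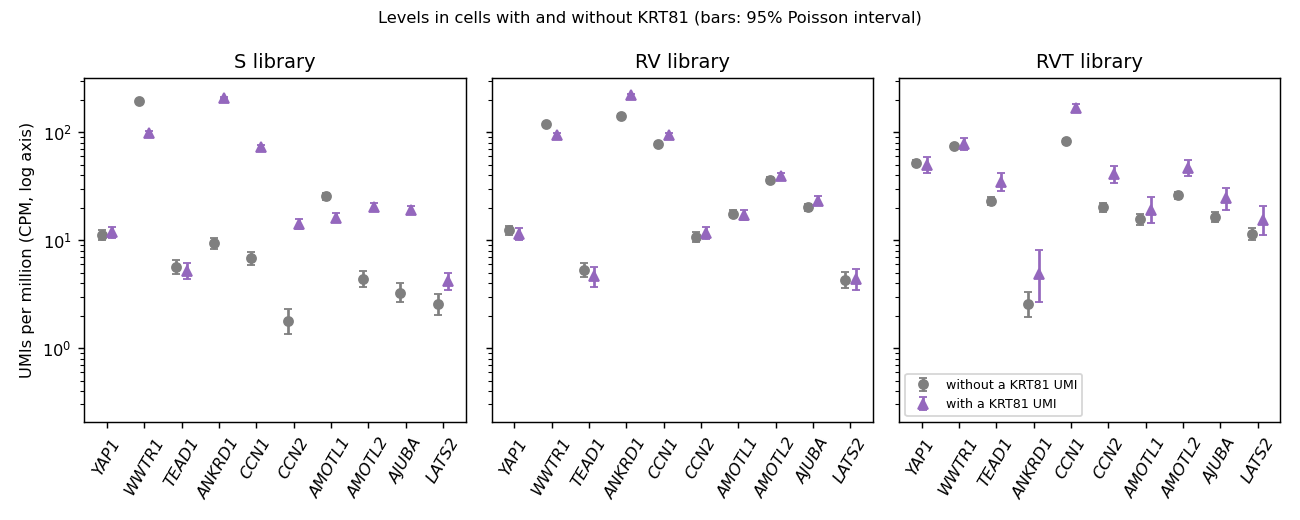
Level of the 10 genes (CPM, log axis) in cells with (triangles) and without (circles) a *KRT81* UMI in the S, RV and RVT libraries, with 95% Poisson intervals. In S the 5 genes *ANKRD1*, *CCN1*, *CCN2*, *AMOTL2* and *AJUBA* are separated by 4.72 to 22.2 times, and in RV the symbols lie close together.

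Mitotic cells, those with at least 3 of 10 mitosis genes detected after thinning, made up 9.63% of S, 13.6% of RV, 21.4% of RVC and 4.34% of RVT cells. In S, *AJUBA*, whose product also acts on mitotic kinases, was at 18.6 CPM in mitotic and 9.66 CPM in other cells (1.93 times, 1.57 to 2.35), and *CCN1* at 49.9 against 36.4 CPM. *WWTR1* was lower in mitotic S cells, at 111 against 155 CPM. In RV, *ANKRD1* was lower in mitotic cells at 127 against 179 CPM (0.711 times, 0.665 to 0.760) and *CCN1* higher at 102 against 80.9 CPM. *CCN1* went the other way in RVC, with 26.6 CPM in mitotic and 37.1 in other cells (0.716 times, 0.609 to 0.837). In RVT it was also lower, at 74.2 against 93.7 CPM (0.793 times, 0.645 to 0.965), and *AMOTL2* was higher, at 42.8 against 27.7 CPM (1.55 times, 1.17 to 2.02). None of the 10 genes passed 2-fold by mitotic state in any library. Of all genes tested, the mitotic cells of S had 2.54% higher and 1.76% lower, those of RV 1.75% and 1.49%, those of RVC 0.65% and 0.699%, and those of RVT 8.72% and 5.97%. At such shares a count of 0 among 10 genes does not set them apart.

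*CCN1* and *CCN2* also answer serum and cell handling, as immediate-early genes do. The 10 immediate-early genes summed to between 408 CPM in RVT and 493 CPM in RV, but single members moved strongly in both directions. In RVC over S 5 of the 10 were higher and 3 lower, beside 23% and 21.9% of all genes, with a median log2 ratio of 1.24 beside 0.21. RVT over S also had 5 higher and 3 lower, beside 32.5% and 21.7%, with a median of 0.92 beside 0.37. *FOS* was at 8.87, 8.19, 50.9 and 68.3 CPM, and *EGR1* at 22.1, 19.9, 99.1 and 114 CPM, whereas *JUNB* was at 106, 88.9, 12.2 and 13.0 CPM. Cells with a UMI of the list held 1.29 times the *CCN1* of other cells in S (1.19 to 1.41) and RV (1.21 to 1.37), 1.24 times in RVT (1.14 to 1.35) and 1.13 times in RVC (0.999 to 1.27). For *CCN2* the intervals included equality in S and RV, and the ratio was 1.44 in RVC (1.17 to 1.76) and 1.54 in RVT (1.30 to 1.83). Whether handling took part in the *CCN1* and *CCN2* levels was not tested.

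Beyond the 10 genes, 21 further genes of the Hippo pathway were counted, of which 16 had a mean of at least 3 CPM. In RV over S 2 of the 16 were higher, beside 2.47% of all genes, and 0 lower, beside 2.03%. These were *FRMD6* at 2.35 times and *NF2*, which encodes merlin, an upstream activator of the kinases, at 2.16 times. In RVC over S 5 were higher, beside 23% of all genes, led by the phosphatase gene *PTPN14* at 4.82 times, *FRMD6* at 4.41 times and the LIM protein gene *LIMD1* at 3.75 times, and *TEAD4* was the 1 gene lower, beside 21.9%. In RVT over S 9 were higher, beside 32.5% of all genes, led by *FRMD6* at 5.55, the kinase gene *TAOK1* at 5.21 and *LIMD1* at 4.37 times, and *TEAD4* was again the 1 lower, at 6.77-fold, beside 21.7%. RVT over RVC had 1 higher, the scaffold gene *SAV1* at 2.57 times, beside 19% of all genes, and 0 lower, beside 11.2%. Median log2 ratios of the 16 genes were 0.27, 0.48, 1.15 and 0.56 in these 4 comparisons, beside 0.02, 0.21, 0.37 and 0.25 over all genes. *VGLL1* had 1 UMI in RV and 0 in the other libraries.

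Of 25 further YAP and TAZ target genes, 19 met the minimum level. *PTPN14* is in this list as well as among the Hippo genes and was counted in both. *BIRC5* is in this list as well as among the 10 mitosis genes. In RV over S 4 were higher, among them the transglutaminase gene *TGM2* at 3.08 times (50.3 to 155 CPM) and *THBS1* at 2.30 times, and 1 was lower, *IGFBP3* at 2.62-fold. Of all genes 2.47% were higher and 2.03% lower. In RVC over S 6 were higher and 4 lower, beside 23% and 21.9% of all genes. The higher genes included *TGFB2* at 21.2 times and *CCDC80* at 10.5 times, while *GADD45A*, *IGFBP3* and *TGM2* were 5.84-fold, 5.08-fold and 4.74-fold lower. In RVT over S 10 were higher and 4 lower, beside 32.5% and 21.7%. *TGFB2*, a growth factor, stood at 0.887 CPM in S and 105 CPM in RVT (119 times, 90.2 to 159), *THBS1* at 32.5 and 656 CPM (20.2 times) and *RBMS3* at 10.6 times. Among the lower genes, *GADD45A* was at 10.6-fold and *NT5E* at 5.57-fold.

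Between the double-resistant libraries, in RVT over RVC, 8 of 19 targets were higher and 4 lower, beside 19% and 11.2% of all genes, with *THBS1* at 62.5 times (56.2 to 69.7), *IGFBP3* at 22.7 times and *TGFB2* at 5.60 times on one side, and *NT5E* at 11.6-fold and *BIRC5* at 7.73-fold on the other. *BIRC5* is also 1 of the 10 mitosis genes, which summed to 1267 CPM in RVC and 359 CPM in RVT. The part of cell division in its ratio was not tested. *THBS1* counted 346 UMIs in RVC and 16670 in RVT. Median log2 ratios of the 19 genes were 0.42, 0.69, 1.04 and 0.32 in the 4 comparisons. Over all genes of the list with more than 3 UMIs in either library they were 0.41, 0.51, 0.77 and 0.23. Those of all tested genes were 0.02, 0.21, 0.37 and 0.25. Counts and medians of the Hippo and target lists rest on library totals, and other scalings were not tried for them. *CAVIN2* and *NPPB* had at most 3 UMIs in any library.

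In the *KRT81* cells of S 10 of the 19 genes were at least 2-fold higher, beside 3.8% of all genes, and 1, *IGFBP3*, was lower at 11.5 against 53.2 CPM, beside 2.19%. The other 8 stayed within 2-fold. *TGM2* stood at 99.5 against 7.82 CPM (12.7 times, 11.2 to 14.5), *THBS1* at 61.9 against 7.12 CPM (8.69 times) and *TGFB2* at 1.58 against 0.286 CPM (5.53 times, 2.66 to 12.9). The median ratio was 2.04, beside 0.955 over all genes. In RV 0 of the 19 genes passed 2-fold in either direction by *KRT81*, beside 0.0485% of all genes higher and 0.437% lower, and the median ratio was 1.01. RVT had 0 of the 18 targets with UMIs in both kinds of cell past 2-fold, beside 0.602% higher and 1.13% lower, with a median ratio of 1.24. Of the 16 Hippo genes in S, 2 were higher in *KRT81* cells, *LIMD1* at 2.46 times and *NF2* at 2.16 times, beside the same 3.8%, and 0 lower. RV had 0 of 16 in either direction. RVT had 0 higher and 1 lower, the LATS cofactor gene *MOB1B* at 2.02-fold with 7 UMIs in *KRT81* cells and an interval that included equality.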

How the data were processed

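Libraries were made with the Chromium v2 3′ chemistry. Per the submitters' processing notes, reads were processed by the authors with bcl2fastq 2.20.0.422 and Cell Ranger on GRCh38, and deposited as raw UMI counts per gene and cell barcode, with nothing normalized. The annotation release was not given in the sources used here. Tables held 6695 S, 4328 RV, 9266 RVC and 10427 RVT barcodes. The study removed dead cells and doublets by criteria not given in the sources used here, and the cell numbers it states before that step equal the barcodes deposited for RVC and RVT but are lower for S and RV. Since S with RV and RVC with RVT used 2 different annotations, only genes listed in all tables were compared.

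From these counts, barcodes with at least 500 genes and at most 20% mitochondrial UMIs were kept. Likely doublets, ranked by Scrublet in scanpy 1.11.5, were taken out at a rate of 0.8% per 1000 barcodes. UMIs were summed over cells and divided by library totals. Intervals were exact Poisson, Clopper-Pearson or conditional binomial intervals at 95%. A gene with 0 UMIs was bounded at a floor of 3 UMIs. Ratios were computed over all genes with a mean of at least 3 CPM. Cells were thinned to 1500 UMIs for shares, joint detection and correlations. Scripts were tested on simulated data. Python 3.11.15, numpy 2.4.6, pandas 2.3.3, scipy 1.17.1, matplotlib 3.10.9, R 4.3.3, edgeR 4.0.16 and DESeq2 1.42.0 were used, the last 2 for size factors only.

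Text names all 10 genes, called genes of the Hippo and target lists with the largest ratios, and the 5 genes most correlated with ANKRD1, CCN1, CCN2 or AMOTL2 where that gene had at least 10 CPM, of which weak ones are given by their highest coefficient. One gene of the target list that this rule would name is not reported here. The 10 genes and all lists were chosen with earlier results of these data known. The division by KRT81 was chosen after the values were seen.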

Additional observations from a re-analysis of the deposited data

How the results depend on the processing

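No paired analysis was possible because each condition was 1 library without replicate number, and no replicate could be left out. All 21 ratios of the 10 genes called at 2-fold kept their direction under 9 other choices of cells and scaling. Counts of the 10 genes called moved by over 1.5 times as follows. In RVT over S, the count of lower genes went from 1 to 2 with at least 1000 genes per cell, without doublet removal, with every cell given equal weight, with TMM or DESeq2 factors, with totals without ribosomal protein and mitochondrial genes, centred on GC content or at 1.5-fold, each time because WWTR1 joined ANKRD1. The count of higher genes went from 6 to 2 centred on GC content. In RVC over S, the higher genes went from 2 to 1 with TMM or DESeq2 factors, without ribosomal protein and mitochondrial genes, centred on GC content or at 3-fold, and to 4 at 1.5-fold. In RVT over RVC, the lower genes went from 0 to 1 with TMM or DESeq2 factors, centred on GC content or at 1.5-fold, and the higher genes from 7 to 4 with TMM or DESeq2 factors or centred on GC content, and to 1 at 3-fold. In RV over S, the higher genes went from 3 to 1 at 3-fold, to 0 in cells with a KRT81 UMI and to 5 in cells without, the last 2 settings chosen after seeing the data. Of all genes, the settings that moved these counts called 21.6% to 30.1% lower and, centred on GC content, 20.7% higher in RVT over S. In RVC over S they called 9.44% higher at 3-fold, 37.6% at 1.5-fold and 16.4% to 17.3% otherwise. In RVT over RVC they called 15.1% to 19.2% lower, and 11.1% to 12% higher or 6.94% at 3-fold. In RV over S they called 0.835% higher at 3-fold, 1.53% in cells with and 5.08% in cells without a KRT81 UMI. Smaller moves were to 2 higher genes in RV over S without a filter on cells, without doublet removal, with TMM or DESeq2 factors or without ribosomal protein and mitochondrial genes, and to 4 at 1.5-fold, beside 2.16% to 2.45% and 6.85% of all genes. Lower genes in RVC over S went to 3 with TMM or DESeq2 factors, without ribosomal protein and mitochondrial genes, centred on GC content or at 1.5-fold, beside 21.7% to 29.4%. Higher genes in RVT over S went to 4 with TMM or DESeq2 factors or at 3-fold, beside 17.8% to 20.7%, and to 7 at 1.5-fold, beside 44%. In RVT over RVC they went to 6 with equal weights, beside 18.5%, and to 8 without ribosomal protein and mitochondrial genes or at 1.5-fold, beside 22.4% and 34.8%. For the scaling and GC settings the cause was not tested. The filters on cells moved none of the 40 log2 ratios beyond its counting interval, equal weights moved 5, totals without ribosomal protein and mitochondrial genes 9, DESeq2 factors 23, centring on GC content 25 and TMM 26. Of 324 ratios of joint detection under other thinning, no thinning, another draw or at least 1000 genes per cell, 294 stayed within the counting interval, and of 160 shares of cells 85 did, while 75, mostly at another depth, moved. Depth limits ANKRD1 in RVC, with 8 UMIs, and shares of cells in RVC and RVT.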
